A study of Mus musculus with 4 samples.

Results

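The T cell receptor complex and its first kinases were examined as 9 genes in *Ebf1*-/- fetal liver cells carrying the EMPTY or the *Mir195* virus. All probes whose gene name was *Cd3d*, *Cd3e*, *Cd3g*, *Cd247*, *Ptcra*, *Lck*, *Zap70*, *Lat* or *Thy1* were taken, which gave 11 probes for 9 of the 31829 gene names on the array. *Cd247* and *Zap70* had 2 probes each. The cells were lineage-depleted (Lin-) progenitors from mid-gestation fetal livers of mice lacking *Ebf1*, the transcription factor that B cell development depends on, so both groups carried the same deletion. They were infected with the retrovirus MDH1-PGK-GFP alone (EMPTY, 2 arrays) or with the same vector holding *Mir195* (miR-195, 2 arrays), and then grown for about a week on OP9 stromal cells with SCF, IL-7 and Flt3-ligand at 10 ng/mL each. The study's methods describe no sort before the RNA was taken, so each array may have measured a mixture with uninfected cells and stroma. The labels do not say that replicates came from separate litters or cultures, and p-values then measure only the spread between these arrays, which may be technical. All 4 arrays lay on 1 slide, with EMPTY on 2 neighbouring positions and miR-195 on the other 2, so position and virus cannot be told apart.

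The T cell receptor itself has no signalling tail of its own. It travels to the surface with CD3 delta, epsilon and gamma and the zeta chain made from *Cd247*, whose tails carry paired tyrosines known as activation motifs. LCK phosphorylates these tyrosines, ZAP70 docks on them and phosphorylates the adaptor LAT, and LAT gathers the enzymes of the next step. *Ptcra* encodes the pre-T alpha chain, which stands in for the alpha chain in thymocytes before that locus is rearranged. *Thy1* encodes a surface glycoprotein that marks mouse T cells and their precursors. Several of these genes are also used outside the T lineage, among them *Lck*, *Zap70*, *Cd247* and *Thy1* in natural killer (NK) and innate lymphoid cells.

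The virus added the microRNA whose mature sequence is shown to identify the treatment. It is that of mouse miR-195a-5p in RefSeq (chr11:70235062-70235082, plus strand, GRCm38.p6), with the seed, bases 2 to 8, in capitals. The virus itself held a segment amplified from human cell-line DNA. The same seed is carried by mouse miR-15a, miR-15b, miR-16 and miR-497a.
mmu-miR-195a-5p: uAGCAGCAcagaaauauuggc

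The probes are 60-base oligonucleotides, and their position in the transcript decides what a level refers to. Shown here are 4 probes that read through an open frame in the coding part. For *Cd3d* and *Cd247* the probe covers a complete activation motif, and its 15 codons, from the first tyrosine to the last leucine, are in capitals. Eta is the *Cd247* variant to which the array assigns this probe, and the probe was not shown to read that variant alone. The probes of *Cd3e*, *Lck* and *Thy1* hold the polyadenylation signal AATAAA and so read the far end of the transcript.
Cd3d: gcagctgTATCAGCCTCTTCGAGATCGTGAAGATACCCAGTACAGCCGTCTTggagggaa
Cd247 (transcript variant eta): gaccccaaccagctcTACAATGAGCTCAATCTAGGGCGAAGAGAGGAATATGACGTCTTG
Zap70: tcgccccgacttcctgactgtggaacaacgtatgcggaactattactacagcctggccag
Lat: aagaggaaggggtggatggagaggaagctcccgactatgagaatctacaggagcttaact

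All 11 probes were well above background on all 4 arrays. The weakest was the second *Cd247* probe, assigned on the array to transcript variant kappa, with a spot 2.30 to 3.27 times its local background. The strongest was *Lck*, whose spot stood 803 to 1142 times above it. Values below are log2 signals relative to the 75th percentile of the same array, so that 0 is the brightness of that percentile and a negative value is dimmer. Levels of different probes cannot be compared, because each probe binds with its own strength. In such bulk RNA, fewer cells of a type and less RNA per cell cannot be told apart.

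*Cd3g*, *Cd3d* and *Thy1* showed the largest differences, each toward lower levels with *Mir195*, while *Lck*, *Zap70* and *Cd3e* lay within the spread of the replicates. By limma with Benjamini-Hochberg adjustment over the 23732 probes tested, 0 of 11 member probes passed an adjusted p of 0.05, against 0% of all probes. At an unadjusted p under 0.05, 4 member probes were lower (*Cd3g*, *Cd3d*, *Thy1* and *Ptcra*) and 0 were higher. Over all probes, 2.09% were lower and 6.25% higher at that level. The miR-195 arrays were both below the EMPTY arrays for 6 of the 11 probes, against 14.4% of all probes, and both above for 0, against 23.4%. The median log2 fold change (miR-195 minus EMPTY) over the 9 genes, with 1 probe each, was -0.29, and that over all probes tested was 0.01. An exact permutation test of 2 arrays against 2 cannot go below p = 0.333, so none is given for single probes. The methods do not say which test was used for arrays. What is called the methods' t-test here compared the log2 ratios of same-numbered arrays, which are not known to be pairs, with 0. It called 0 member probes at the methods' threshold, and 1134 of all probes, of which 0 were left after Benjamini-Hochberg adjustment.

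**Figure D1:**
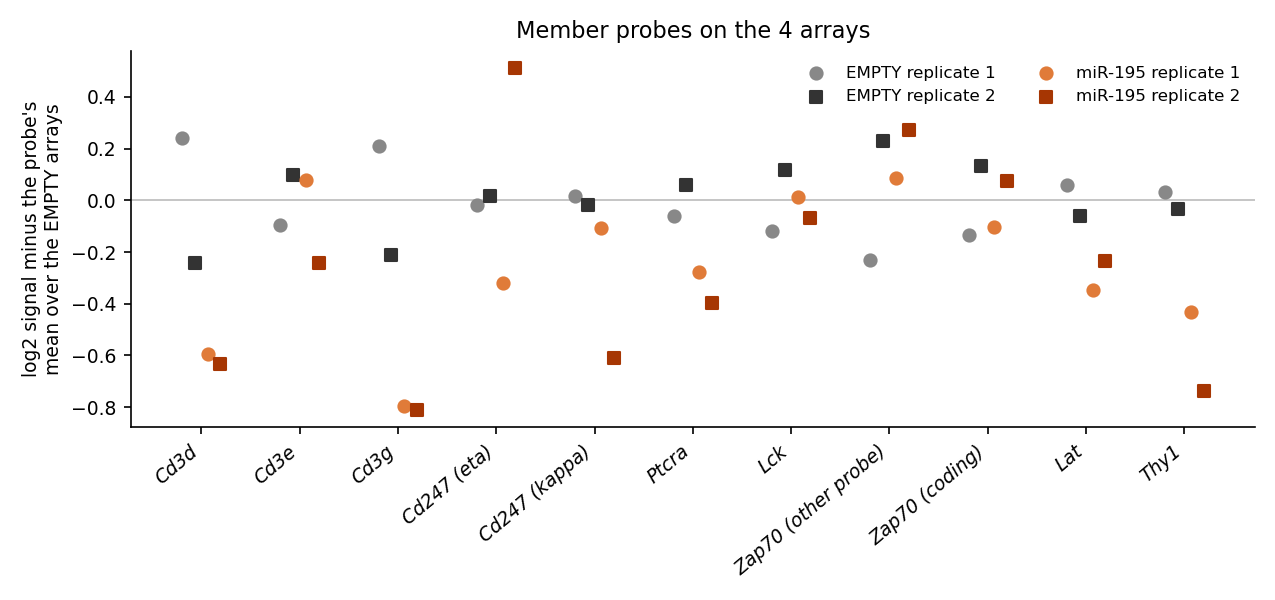
Log2 signal of each of the 11 member probes on the 4 arrays, as the difference from that probe's mean over the 2 EMPTY arrays. Both miR-195 points lie below both EMPTY points for *Cd3d*, *Cd3g*, *Cd247* (kappa), *Ptcra*, *Lat* and *Thy1*, and the points mix for *Cd3e*, *Cd247* (eta), *Lck* and both *Zap70* probes.

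*Cd3g*, encoding the CD3 gamma chain, had log2 signals of -0.53 and -0.96 with EMPTY and -1.54 and -1.56 with *Mir195*. The EMPTY arrays were apart from each other by 0.42, the miR-195 arrays agreed closely, and the groups did not overlap. The log2 fold change was -0.80 (SE 0.18, 95% interval -1.27 to -0.34), a level 1.74-fold lower with *Mir195*, with an adjusted p of 0.530 in limma. This was the largest difference among the 11 probes.

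*Cd3d*, encoding the CD3 delta chain, had log2 signals of -2.26 and -2.75 with EMPTY and -3.101 and -3.14 with *Mir195*. As for *Cd3g*, EMPTY replicate 1 was highest and the groups did not overlap. The log2 fold change was -0.61 (SE 0.19, 95% interval -1.12 to -0.11), or 1.53-fold lower, with an adjusted p of 0.542 in limma. It was -0.31 after another background correction (normexp) and -0.37 without EMPTY replicate 1.

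*Cd3e*, encoding the CD3 epsilon chain that pairs with either of the other CD3 chains, behaved otherwise. Its log2 signals were -0.85 and -0.66 with EMPTY and -0.67 and -0.997 with *Mir195*, so the groups overlapped. The log2 fold change was -0.08 (95% interval -0.52 to 0.36), and the sign turned positive when EMPTY replicate 2 or miR-195 replicate 2 was left out.

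Differences between 2 probes taken within an array do not depend on the scaling between arrays. With the EMPTY mean set to 0, the difference of *Cd3g* from *Cd3e* was 0.31 and -0.31 with EMPTY and -0.87 and -0.57 on the miR-195 arrays. The signal of *Cd3g* relative to *Cd3e* was thus 0.72 lower on the log2 scale with *Mir195*, and that of *Cd3d* relative to *Cd3e* 0.53 lower, with no overlap between the viruses in either. For *Cd3d* the groups nearly touched, at 0.34 and -0.34 with EMPTY and -0.68 and -0.39 on the miR-195 arrays. These pairs were chosen after the values had been seen, and the differences were not tested. Relative to *Cd3d*, *Cd3g* was lower by 0.19, also without overlap and not tested. This difference was -0.03 and 0.03 with EMPTY and -0.20 and -0.18 on the miR-195 arrays.

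The 3 CD3 genes are neighbours on mouse chromosome 9. In the RefSeq annotation of GRCm38.p6, *Cd3g* and *Cd3d* are read away from each other from starts 1355 bases apart, and *Cd3e* starts 27825 bases from *Cd3d*. Since the divergent pair was lower and the neighbour overlapped between viruses, the 250 bases before each start are shown. Capitals mark matches, on either strand, to the letters of 5 motifs, and no matches overlap in these 3 windows. The first is CAGNTG, an E box of the kind that E proteins bind, which was present in 44.8% of the windows of the same length before all 32851 starts. The second is TGNGGT, in 40.1% of the windows, which is looser than the TGTGGT or TGCGGT that RUNX proteins bind. In the 3 windows shown it matched only TGAGGT or TGGGGT, so no RUNX site is marked. The others are AGGAAG for ETS proteins, in 29.5% of windows, AGATAA for GATA proteins, in 10.0%, and CTTTGA for TCF and LEF proteins, in 13.8%.
Cd3g (chr9:44980432-44980681, minus strand): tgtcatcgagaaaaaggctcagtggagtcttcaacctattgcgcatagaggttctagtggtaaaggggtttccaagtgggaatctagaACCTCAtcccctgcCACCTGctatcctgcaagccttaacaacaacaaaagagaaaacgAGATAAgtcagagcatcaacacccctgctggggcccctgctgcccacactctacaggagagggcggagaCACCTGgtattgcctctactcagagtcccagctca
Cd3d (chr9:44981536-44981785, plus strand): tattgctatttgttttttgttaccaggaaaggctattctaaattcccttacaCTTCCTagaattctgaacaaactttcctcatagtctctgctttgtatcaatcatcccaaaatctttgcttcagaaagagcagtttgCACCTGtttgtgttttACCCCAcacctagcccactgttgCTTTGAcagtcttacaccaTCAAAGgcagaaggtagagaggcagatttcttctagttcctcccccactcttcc
Cd3e (chr9:45009612-45009861, minus strand): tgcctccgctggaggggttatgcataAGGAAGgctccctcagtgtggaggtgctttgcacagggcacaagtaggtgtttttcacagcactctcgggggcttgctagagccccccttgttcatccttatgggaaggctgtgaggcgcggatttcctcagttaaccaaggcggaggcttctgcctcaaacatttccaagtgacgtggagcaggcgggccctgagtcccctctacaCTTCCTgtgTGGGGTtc

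The *Cd3g* window held 2 matches to CAGNTG, 1 to TGNGGT and 1 to AGATAA. The *Cd3d* window held 1 match to CAGNTG, 1 to TGNGGT, 1 to AGGAAG and 2 to CTTTGA. In the *Cd3e* window there were 1 match to TGNGGT and 2 to AGGAAG and none to CAGNTG. A match to letters is a description of the sequence only. Of the other members, the single *Ptcra* window held 2 matches to CAGNTG, with 1 match to TGNGGT overlapping another match. The *Cd247* and *Lat* windows held 1 match to CAGNTG each. *Lck*, with 2 windows, held 1 and 0, and *Zap70*, with 3 windows, held 2, 0 and 1. CAGNTG was present before members whose groups overlapped and before members whose groups did not, and any part of it in these levels was not tested.

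*Cd247* gives the zeta chain and its splice variants. The probe over the activation motif had log2 signals of -3.35 and -3.32 with EMPTY and -3.65 and -2.82 on the miR-195 arrays. The miR-195 arrays lay on either side of EMPTY, and the log2 fold change of 0.10 had a 95% interval of -0.67 to 0.86, the widest of the members. The kappa probe gave -4.14 and -4.17 with EMPTY and -4.26 and -4.76 with *Mir195*. It was lower by 0.36 on the log2 scale (95% interval -0.88 to 0.16), which became 0.09 higher after normexp correction, so its direction is not settled. Both probes were dim, and they differed from each other in sign.

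*Ptcra*, the pre-T alpha gene, had log2 signals of -3.11 and -2.98 with EMPTY and -3.32 and -3.44 on the miR-195 arrays. The groups did not overlap, and the log2 fold change was -0.34 (SE 0.13, 95% interval -0.67 to -0.01), with an adjusted p of 0.590 in limma. After normexp correction the log2 fold change was -0.09.

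The kinases differed little. *Lck*, the SRC-family kinase that starts the cascade, had log2 signals of 5.19 and 5.43 with EMPTY and 5.32 and 5.24 on the miR-195 arrays. The miR-195 values lay between the EMPTY values, and the log2 fold change of -0.03 had a 95% interval of -0.39 to 0.34. The sign was positive after quantile normalization and without EMPTY replicate 2 or miR-195 replicate 2.

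*Zap70*, the kinase that docks on phosphorylated CD3 and zeta tails, was read by 2 probes. The coding probe gave log2 signals of 1.01 and 1.28 with EMPTY and 1.04 and 1.22 with *Mir195*, a log2 fold change of -0.01 (95% interval -0.42 to 0.39) whose sign varied with the scaling. The other gave 2.31 and 2.77 with EMPTY and 2.63 and 2.81 with *Mir195*, a log2 fold change of 0.18 (95% interval -0.34 to 0.70). On both probes the groups overlapped, and EMPTY replicate 1 was the lowest array.

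*Lat*, the adaptor that ZAP70 phosphorylates, had log2 signals of -0.02 and -0.14 with EMPTY and -0.42 and -0.31 on the miR-195 arrays. The groups did not overlap, but the difference was small, with a log2 fold change of -0.29 (SE 0.12, 95% interval -0.62 to 0.04) and an adjusted p of 0.643 in limma.

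*Thy1* had log2 signals of 3.56 and 3.50 with EMPTY and 3.099 and 2.79 with *Mir195*. It was the only member with a bright probe, above the 75th percentile, and groups that did not overlap. The log2 fold change was -0.59 (SE 0.15, 95% interval -0.98 to -0.19), or 1.5-fold lower, with an adjusted p of 0.530 in limma. Without each array in turn it stayed between -0.74 and -0.43.

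**Figure D2:**
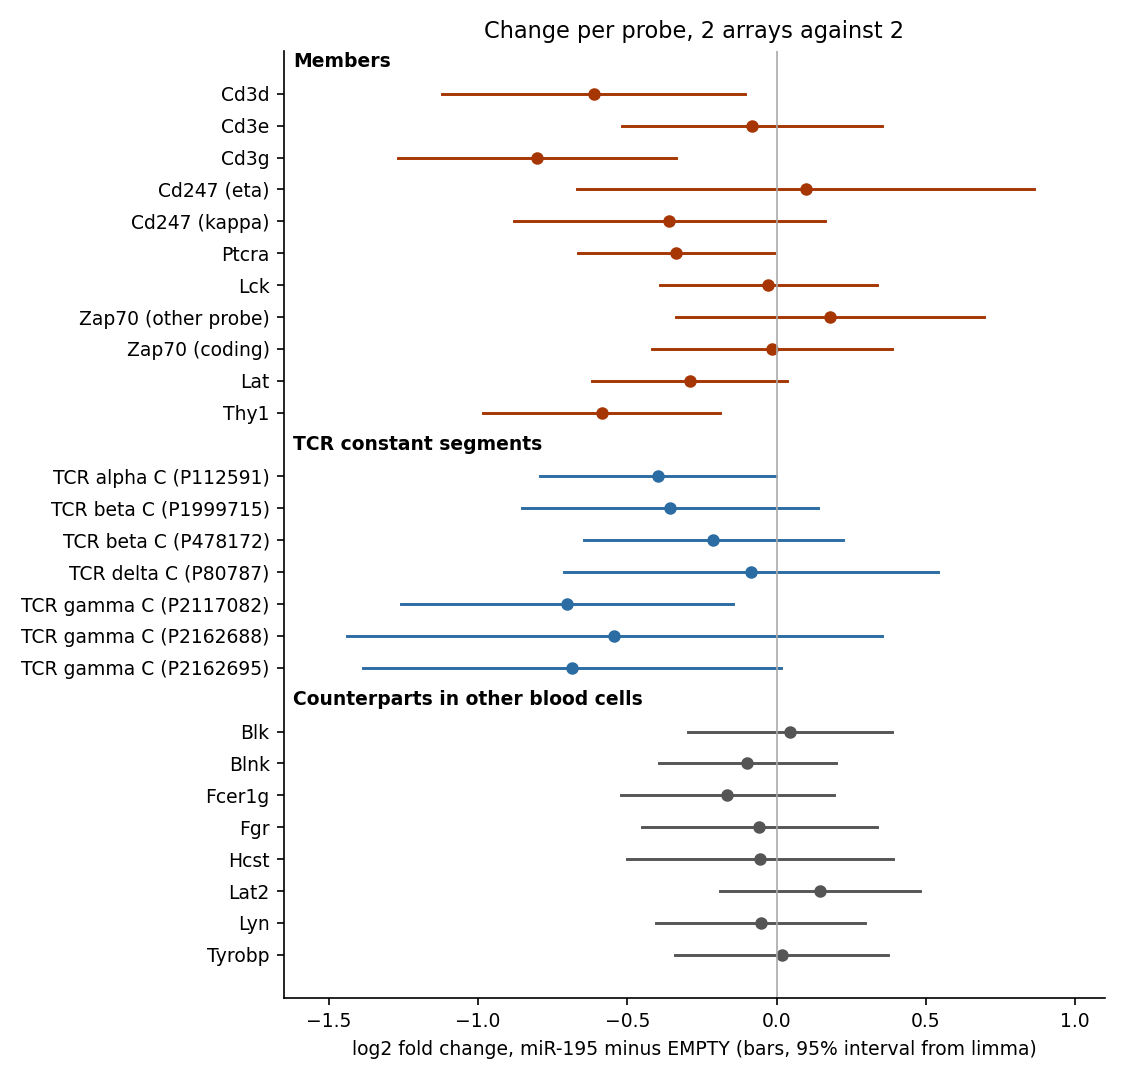
Log2 fold change (miR-195 minus EMPTY) of each probe with its 95% interval from limma, for the members, the constant segments of the receptor loci and the counterparts used in other blood cells. Among members the interval lies wholly below 0 for *Cd3d*, *Cd3g*, *Ptcra* and *Thy1*, and no interval lies wholly above 0 in any of the 3 groups.

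The chains of the receptor itself are poorly named on this array. Of 16 symbols searched for receptor genes, 4 had a probe. *Tcra* and *Tcrg-V1* were well above background on all arrays, with overlapping groups and log2 fold changes of 0.24 and -0.15, and *Tcrb-J* and *Tcrg-V2* on none. By their description, which was searched after the files had been opened, 7 further probes read constant segments, and all 7 were well above background on every array. Both miR-195 arrays were lower than both EMPTY arrays for 4 of them, against 14.4% of all probes, and higher for 0, against 23.4%. None of the 7 passed an adjusted p of 0.05 in limma. Transcripts of an unrearranged locus can hold a constant segment, so a signal does not show a functional receptor chain.

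The constant segment of the gamma locus annotated as TRGC1 (probe A_55_P2117082) had log2 signals of 2.73 and 2.18 with EMPTY and 1.78 and 1.73 on the miR-195 arrays. The order of the arrays was that of *Cd3g* and *Cd3d* for EMPTY, with replicate 1 highest. Its log2 fold change was -0.70 (SE 0.21, 95% interval -1.26 to -0.14), with an adjusted p of 0.538 in limma. Without EMPTY replicate 1 it was -0.42. The other gamma probes gave -0.54 (A_55_P2162688) and -0.69 (A_55_P2162695), the first with overlapping groups and the second turning to 0.08 after normexp correction. Without EMPTY replicate 1 these were -0.14 and -0.39, and without miR-195 replicate 1 they were -0.25 and -0.45. Gamma constant segments are near-identical copies, so these probes may share transcripts.

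The alpha constant segment (A_52_P112591) had log2 signals of -3.35 and -3.25 with EMPTY and -3.85 and -3.55 with *Mir195*, a log2 fold change of -0.40 that was -0.12 after normexp correction, -0.24 in the authors' table and -0.25 without miR-195 replicate 1. The beta segments gave -0.36 (A_55_P1999715, TRBC1) and -0.21 (A_51_P478172, TRBC2), which are also near copies of each other. Without EMPTY replicate 1 the beta segments gave -0.16 and -0.036. The delta segment (A_52_P80787) gave -0.09 with overlapping groups, and the sign turned without miR-195 replicate 1. All of the 7 point estimates were negative, and 2 reached an unadjusted p under 0.05, a level at which 2.09% of all probes were lower.

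Further along the pathway, 44 other genes of T cell receptor signalling were examined, and 57 probes of 42 of them were tested. *Themis* and *Sh2d1a*, a thymocyte signalling protein and a small adaptor, were well above background on no array. Of the 57 probes, 0 passed an adjusted p of 0.05 in limma, 4 were lower and 1 higher at an unadjusted p under 0.05, against 2.09% and 6.25% of all probes. Both miR-195 arrays were below both EMPTY arrays for 12 of the 57 (14.4% over all probes) and above for 4 (23.4% over all probes). The median log2 fold change over the 42 genes was -0.07, with 28 genes below 0 and 14 above. Without EMPTY replicate 1 this median turned to 0.04, with 18 genes below 0 and 24 above. Leaving out any other single array kept it between -0.15 and -0.04.

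By the rule for named genes, which took 1 probe per gene among those well above background on all 4 arrays, the 3 largest differences downward were *Cd8a*, *Txk* and *Lcp2*. *Cd8a*, which encodes a chain of the CD8 coreceptor that brings LCK to the receptor, had log2 signals of -3.42 and -3.39 with EMPTY and -4.35 and -4.28 with *Mir195* on probe A_52_P443334. The replicates lay close together and the groups were far apart, with a log2 fold change of -0.91 (SE 0.12, 95% interval -1.21 to -0.61) and an adjusted p of 0.530 in limma. After normexp correction the log2 fold change was -0.28. Without miR-195 replicate 1 the adjusted p was 0.0461, in a fit that made 904 calls over all probes. The second *Cd8a* probe gave -0.81, or -0.19 after normexp correction, and *Cd8b1*, the partner chain, gave -1.04, both named after their values were seen. *Cd8b1* was left out by the rule, being well above background on 3 of the arrays, and its log2 fold change was -0.15 after normexp correction.

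*Txk*, a TEC-family kinase of T and NK cells, had log2 signals of 1.39 and 0.90 with EMPTY and 0.30 and 0.46 with *Mir195*. The groups did not overlap, and the log2 fold change was -0.77 (SE 0.20). *Lcp2*, encoding the adaptor SLP-76 that binds the LAT complex, gave -0.43 with overlapping groups, which was -0.067 after normexp correction, -0.21 without EMPTY replicate 1 and -0.17 without miR-195 replicate 1. By the same rule the 3 largest differences upward were *Plcg1*, the phospholipase recruited by LAT, at 0.34 on probe A_55_P2015860, *Cd5*, a surface inhibitor of receptor signalling, at 0.31, and the phosphatase gene *Ptprc* (CD45) at 0.27. *Plcg1* was at 0.17 without EMPTY replicate 2. Another *Plcg1* probe (A_55_P2182795), named after its values were seen, was well above background on 3 arrays and gave 0.61, or 0.33 after normexp correction and 0.23 in the authors' table. It was the single probe higher at an unadjusted p under 0.05. For *Cd5* the log2 signals were 1.88 and 2.02 with EMPTY and 2.30 and 2.23 with *Mir195*, without overlap. The *Ptprc* groups overlapped, and its sign turned without EMPTY replicate 2 or miR-195 replicate 2.

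**Figure D3:**
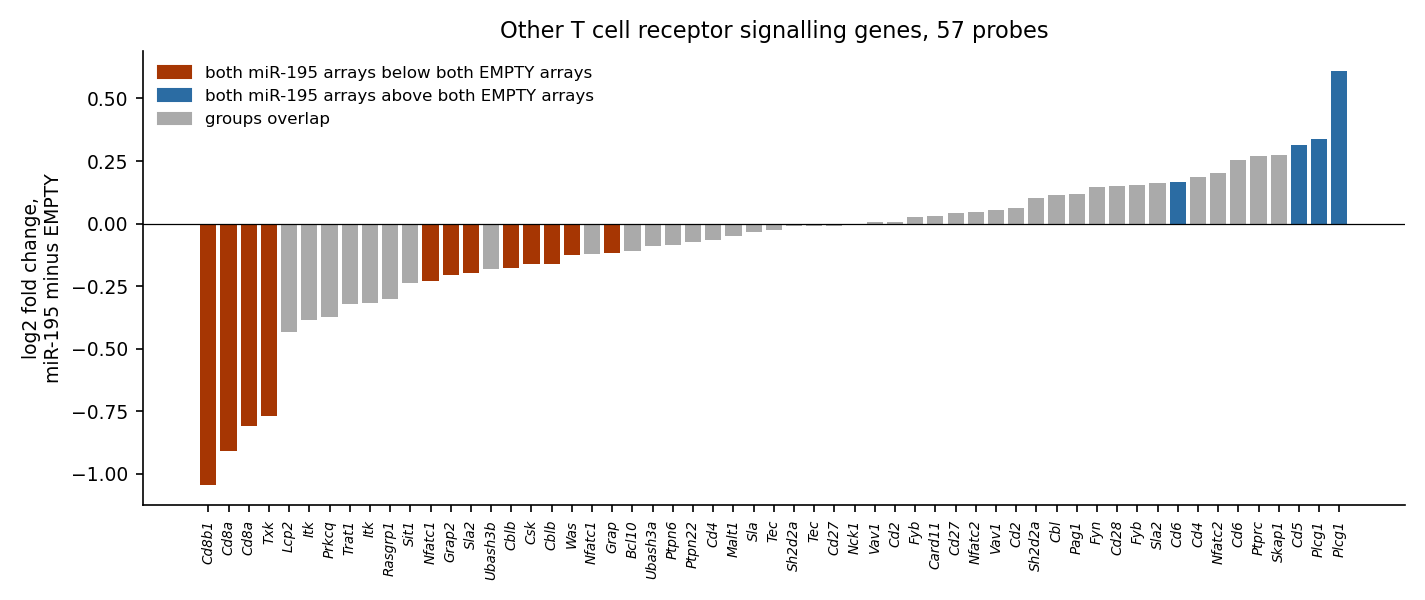
Log2 fold change (miR-195 minus EMPTY) of the 57 tested probes of 42 other T cell receptor signalling genes, in order, with 1 bar per probe. Bars are coloured where the arrays of the viruses did not overlap, 12 of them lower and 4 higher with *Mir195*, and the 4 lowest bars are *Cd8b1*, the 2 *Cd8a* probes and *Txk*.

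Other blood cells signal with counterparts of these proteins. The receptor subunits FCER1G and TYROBP take the place of CD3 and zeta, LAT2 that of LAT, and LYN, BLK and FGR that of LCK. HCST is a receptor subunit too, but carries no activation motif. Of 9 such genes, 8 had a probe under their name (*Syk* had none), and all 8 were well above background on all arrays. None of the 8 passed an adjusted p of 0.05 in limma, or an unadjusted p under 0.05. *Fcer1g* (-0.17) and the B cell adaptor gene *Blnk* (-0.10) were lower on both miR-195 arrays, and *Lat2* (0.14) was higher on both. *Tyrobp*, *Hcst*, *Lyn*, *Blk* and *Fgr* had log2 fold changes between -0.06 and 0.04 and changed sign under at least 1 alternative.

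Genes that mark cell types were examined as lists, because several members are also expressed outside the T lineage. The labelled stage was an early B cell. Of its markers, *Vpreb1* and 1 of 2 *Pax5* probes were well above background on all 4 arrays, the other *Pax5* probe on none and *Cd79a* with EMPTY only. The *Cd79a* spots were only 1.80 to 2.20 times background. Of 11 B lineage genes tested, 8 were above 0 and 3 below, with a median log2 fold change of 0.07. Among their 14 tested probes, 4 were higher and 0 lower at an unadjusted limma p under 0.05 (6.25% and 2.09% over all probes). For 6 of the 14 both miR-195 arrays were above both EMPTY arrays, and for 3 below (23.4% and 14.4% over all probes). Of the 12 T cell markers, 9 also belong to the signalling genes above, and 11 were tested, with 7 below 0, 4 above and a median log2 fold change of -0.30. That median was -0.14 without EMPTY replicate 1 and -0.12 without miR-195 replicate 1. It was -0.39 without EMPTY replicate 2 and -0.33 without miR-195 replicate 2. *Bcl11b*, the transcription factor that seals T cell commitment, passed the detection limit with EMPTY on both arrays but with *Mir195* on neither. The probe was thus tested only through the EMPTY arrays, where it was higher, and its spots were only 1.72 to 2.40 times background. Its mean with EMPTY was 1.98-fold above the lowest detected signal of the miR-195 arrays, a value that makes no allowance for the spread between arrays. The adjusted p was 0.530 in limma, and the gene was named after its values were seen. Its second probe was detected on no array.

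For NK and innate lymphoid markers 0 of 18 probes passed an adjusted p of 0.05 in limma, and the list medians per array overlapped between the viruses. At an unadjusted limma p under 0.05, 2 probes were lower and 0 higher (2.09% and 6.25% over all probes). For 7 of the 18 both miR-195 arrays were below both EMPTY arrays, and for 0 above (14.4% and 23.4% over all probes). All 14 genes were tested, 13 were below 0, and the median log2 fold change was -0.25, but without EMPTY replicate 1 the median was -0.05, with 8 genes below 0 and 6 above. Their summed signal, as a multiple of the 75th percentile, was 51.2 to 58.9 with EMPTY and 43.0 to 47.7 with *Mir195*, and EMPTY replicate 1 was the highest array for 12 of the 14. It was also the highest for *Cd3d*, *Cd3g*, *Lat*, *Thy1* and the kappa probe of *Cd247*. Without EMPTY replicate 1 the log2 fold change was -0.59 for *Cd3g*, -0.37 for *Cd3d* and -0.55 for *Thy1*. The part of NK and innate lymphoid cells in these differences was not tested.

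Markers of OP9 stroma were detected for 10 of 15 genes by the same rule, and for 10 of the 10 miR-195 replicate 2 was the highest array. Their summed signal was 13.4 to 14.3 with EMPTY and 12.5 to 23.6 with *Mir195*, while *Dcn*, *Lum*, *Pdgfra* and *Postn* were at background on all arrays. Without that array the log2 fold change was -0.79 for *Cd3g*, -0.59 for *Cd3d* and -0.43 for *Thy1*, and the part of stroma in the differences was not tested. Plasmacytoid dendritic cell markers were bright, with a summed signal of 414 to 446 with EMPTY and 402 to 433 with *Mir195* and a median of -0.06. Mast cell and basophil markers were mostly at background, with 6 of 9 genes well above it on no array.

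**Figure D4:**
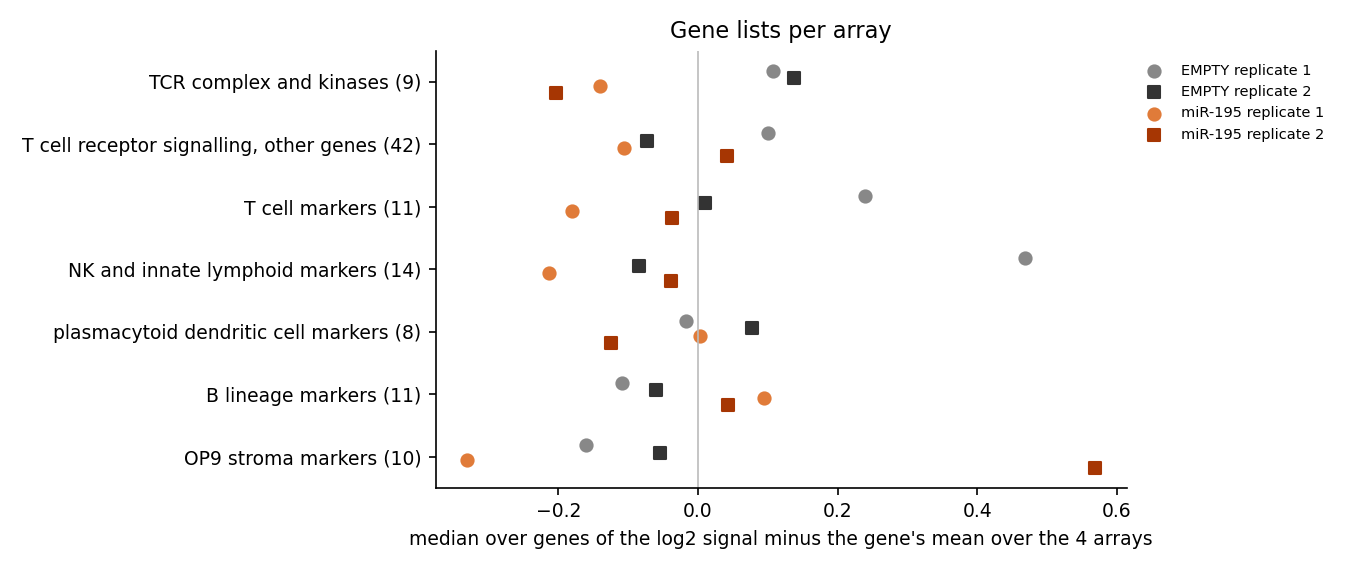
Median over the tested genes of each list (number in brackets) of the log2 signal minus the gene's mean over the 4 arrays, with 1 point per array. The members lie at 0.11 and 0.14 with EMPTY and -0.14 and -0.20 on the miR-195 arrays, NK and innate lymphoid markers stand out on EMPTY replicate 1 (0.47), and OP9 stroma markers on miR-195 replicate 2 (0.57).

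How far each member depended on the processing is shown by its values under the 9 alternatives that can alter a fold change. The other 6 change only the filter or the test. *Cd3g*, *Cd3d*, *Thy1*, *Ptcra* and *Lat* were lower with *Mir195* under all 9. *Cd3g* ranged from -1.01 to -0.59, *Cd3d* from -0.86 to -0.31, and *Thy1* from -0.74 to -0.43. The lowest adjusted p of any member under any of the 15 alternatives was 0.0741, for *Thy1* without miR-195 replicate 1.

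**Figure D5:**
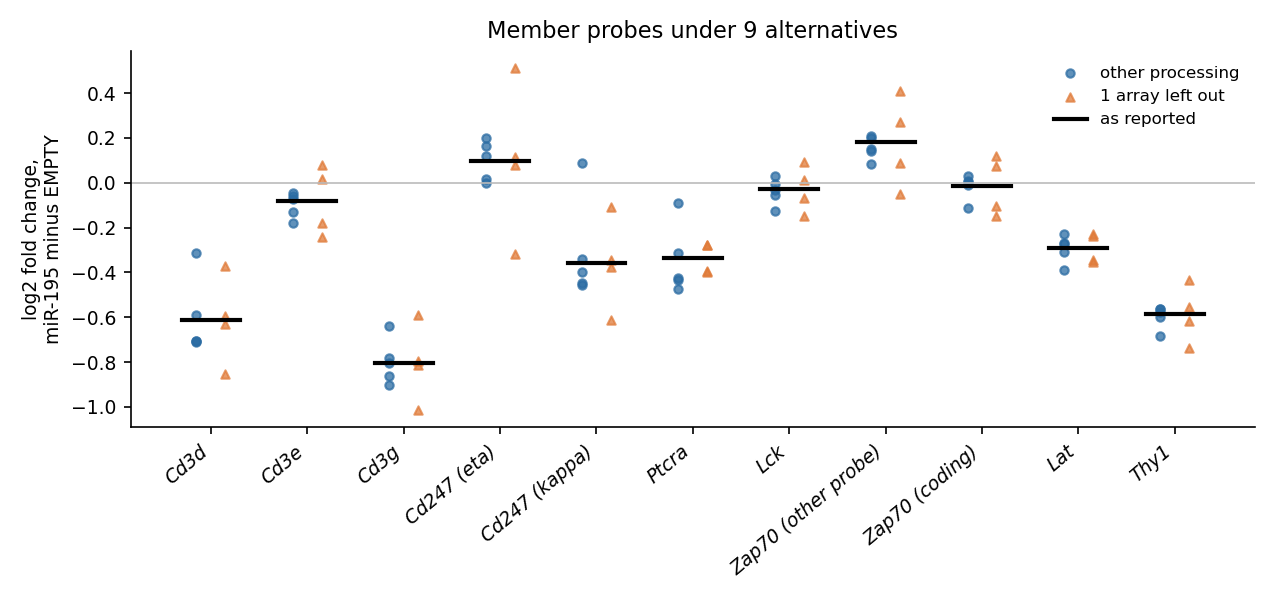
Log2 fold change (miR-195 minus EMPTY) of each member probe as reported (black bar) and under the 9 alternatives that can alter it, with triangles for the 4 fits that leave out 1 array. *Cd3d*, *Cd3g*, *Ptcra*, *Lat* and *Thy1* stay below 0, and the points of *Cd3e*, *Lck*, both *Cd247* probes and both *Zap70* probes lie on both sides of 0. Leaving out 1 array could not turn the sign of those that stay below 0.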

How the data were processed

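The data are 4 Agilent Whole Mouse Genome 4x44K v2 arrays in 1 colour (Cy3), assigned to the viruses from the labels' titles. Per spot, the authors deposited the scanner software's background-corrected intensity with flags for detection, saturation and outliers, and a table of log2 values normalized to the 75th percentile. The software is version 9.1.3.1 in the file headers and 11.5.1.1 in the submitters' processing notes. The authors analysed their data in GeneSpring. Here log2 intensity was averaged over spots of a probe and the array's 75th percentile (902 to 1127) was subtracted. These values and the deposited log2 table correlated with r = 0.998 per array. The table's column medians were -4.45 to -4.29.

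Of 39429 probes, 23802 had the detection flag on both replicates of EMPTY, of miR-195 or of both, and 70 of these were left out for outlier spots. No spot was saturated. The comparison was made with limma 3.58.1 (lmFit, eBayes) under R 4.3.3 (two-sided, Benjamini-Hochberg, adjusted p of 0.05) and tested on simulated data. The number of arrays limits the precision. The members, gene lists and tests were chosen with earlier results of these data known. Named were every member probe, tested counterparts, detected receptor genes and the 3 largest differences each way in the pathway, with others marked where given. The values of some listed genes are not reported here. Probe accessions matched RefSeq for 10 of 11 member probes, all but the *Cd247* probe assigned to variant kappa. Promoter windows were looked up by symbol and none was found for *Thy1*. The alternatives were other background correction, scaling, filters and variance models, the deposited table, a replicate block, leaving out each array and the methods' t-test.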

Additional observations from a re-analysis of the deposited data

How the results depend on the processing

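Of the 11 member probes, those of *Cd3d*, *Cd3g*, *Ptcra*, *Lat* and *Thy1* kept their direction under the 9 alternatives that can alter a fold change, and no member passed the threshold under any of 15. For those 5 genes leaving out 1 array could not turn the sign, since their groups did not overlap. The count of member probes lower on both miR-195 arrays was 6, was 5 after normexp correction and otherwise 6 to 9. The share over all probes was 14.4%, 10.4% after normexp correction, 25.6% with median scaling and 24.5% to 38.2% with 1 array left out. Without EMPTY replicate 1, where the member count was 9, it was 33.7%. Leaving out an array can only keep or raise such counts. Calls over all probes numbered 0, but 3 with median scaling, 5 with the replicate block, and 0 to 904 when 1 array was left out, the 904 without miR-195 replicate 1, where the lone miR-195 array is assumed to vary like the EMPTY arrays. Calls among the other signalling genes were 0 to 1 with 1 array left out, and member probes above on both miR-195 arrays 0 to 3. The replicate numbers are not stated to pair the arrays, and same-numbered arrays deviated with a correlation of -0.10. The replicate block made 0 calls among members, and 3 member probes were lower at an unadjusted p under 0.05. Crossing the numbers, an alternative added after seeing the data, gave 0 calls over all probes. The median over the member genes (-0.29) was -0.088 after normexp correction, -0.39 with median scaling, -0.23 in the authors' table and -0.32 to -0.23 with 1 array left out. The median over all probes tested (0.013) was 0.072, -0.084, -6.11e-05 and -0.0074 to 0.039 in the same order. Of the values of single probes under alternatives, 518 kept their direction and side of the threshold (with the 6 alternatives that cannot alter a fold change included), 1 newly passed it (*Cd8a* without miR-195 replicate 1) and 34 changed sign, for which the cause was not tested. After normexp correction these were 0.087 for *Cd247* (kappa), 0.080 for the gamma segment A_55_P2162695 and 0.0095 for *Tcrg-V1*. With median scaling they were -0.080 for *Tyrobp*, -0.053 for *Blk* and -0.00049 for *Cd247* (eta). With quantile normalization they were -0.047 for *Blk*, 0.0033 for *Zap70* (coding) and 0.030 for *Lck*, with the percentile over detected probes 0.0074 for *Zap70* (coding), and in the authors' table -0.026 for *Blk* and 0.031 for *Zap70* (coding). With 1 array left out, the ranges that crossed 0 were -0.24 to 0.081 for *Cd3e*, -0.32 to 0.51 for *Cd247* (eta), -0.15 to 0.092 for *Lck*, -0.15 to 0.12 for *Zap70* (coding), -0.051 to 0.41 for the other *Zap70* probe, -0.41 to 0.24 for the delta segment, -0.090 to 0.12 for *Tyrobp*, -0.029 to 0.12 for *Blk*, -0.17 to 0.057 for *Fgr*, -0.16 to 0.056 for *Lyn*, -0.21 to 0.10 for *Hcst*, -0.16 to 0.70 for *Ptprc*, -0.13 to 0.60 for *Tcra* and -0.35 to 0.051 for *Tcrg-V1*. Signal over background limits the dim probes, and the normexp correction moved *Cd247* (kappa), *Cd3d* and *Ptcra* by more than any other member.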
